A study of Homo sapiens with 6 samples.

Results

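Myc binding was examined at the promoters of 45 genes that encode the subunits of RNA polymerases I, II and III, the mitochondrial RNA polymerase and the general transcription factors of RNA polymerase III. They were chosen by symbol alone from 19785 protein-coding genes, as every gene named POLR1, POLR2 or POLR3 with a letter, POLRMT, GTF3A, GTF3C1 to GTF3C6, BRF1, BRF2, BDP1 and TBP. The cells were MDA-MB-231, a triple-negative breast cancer line, either parental or without TXNIP (TKO). TXNIP is the thioredoxin interacting protein, a regulator of glucose uptake, and the study asked whether its loss changes where Myc binds the genome. Each of the 2 cell lines had 2 Myc chromatin immunoprecipitation sequencing (ChIP-seq) libraries, and the same Myc antibody and the same serum-containing medium were used for both. The TKO line was made with CRISPR/Cas9 and grown from single cells, so that the loss of TXNIP and the choice of a clone cannot be told apart. No expression values, and no measurement of TXNIP itself, were analysed here.

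RNA polymerase I transcribes the large ribosomal RNA precursor, RNA polymerase II transcribes messenger RNA, and RNA polymerase III transcribes transfer RNA and 5S ribosomal RNA. All 3 are built around a pair of large catalytic subunits and share a set of small subunits, and RNA polymerase III is brought to its genes by the factors TFIIIA, TFIIIB and TFIIIC. Myc is a transcription factor that binds with its partner Max to E-boxes, of which CACGTG is the canonical form, and it is known for driving ribosome production and the activity of all 3 polymerases.

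The E-boxes at the Myc peaks of these promoters are shown first, because they are the sequence that Myc is known to bind. A member counted as bound in a library when the summit of a peak, the position of most reads, lay within 1 kb of one of its transcription start sites (TSS). Of the 16 members bound in all 4 libraries, 8 had CACGTG within 50 bp of the summit in at least 1 library, against 33.1% of the 1843 genes of that pattern. Of the 20 members bound in both TKO libraries and no parental library 0 had it, against 8.43% of the 5887 genes of that pattern. The first set has 4 summits per gene and the second 2, and the shares within the TKO libraries are given further on. The GRCh37 (hg19) reference sequence of 7 of these 8 is given below 5′ to 3′ on the strand of the gene, with CACGTG in capitals.
POLR2I, chr19:36605825-36605924, minus strand: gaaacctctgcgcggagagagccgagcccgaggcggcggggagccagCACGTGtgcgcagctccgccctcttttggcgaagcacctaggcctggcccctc
GTF3C6, chr6:111279720-111279819, plus strand: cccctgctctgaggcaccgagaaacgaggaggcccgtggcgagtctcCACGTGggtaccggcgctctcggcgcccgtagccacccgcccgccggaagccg
GTF3C4, chr9:135545039-135545138, plus strand: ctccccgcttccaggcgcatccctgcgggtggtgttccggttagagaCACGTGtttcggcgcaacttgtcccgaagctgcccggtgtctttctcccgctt
GTF3C2, chr2:27579682-27579781, minus strand: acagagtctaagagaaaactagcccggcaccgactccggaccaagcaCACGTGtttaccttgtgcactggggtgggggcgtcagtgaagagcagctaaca
POLR1G, chr19:45909878-45909907, plus strand: cccctttggatcCACGTGgtctgcaacctg
POLR3A, chr10:79789291-79789320, minus strand: agaggaagcggaCACGTGggacactctacg
POLR3E, chr16:22308717-22308746, plus strand: cccgctccccccCACGTGtccgccggagtt
The E-box of POLR2I, at -98 bp from its TSS, was within 50 bp of the summit in all 4 libraries. That of POLR3A, at -33 bp, was near the summit in 3 libraries, as was that of GTF3C6, at -139 bp. The E-box at -333 bp of GTF3C4 lies in an intron of the divergent gene DDX31 and was near the summit in both parental libraries, as was the E-box at -9 bp of POLR1G. A further CACGTG of POLR1G, at -756 bp in an intron of PPP1R13L, was near the summit in TKO replicate 1 and is not shown. The E-boxes of GTF3C2, at -101 bp, and POLR3E, at the start site within the 5′ UTR, were near the summit in 1 parental library each. POLR3D, the member not shown, had its E-box within 50 bp of the summit in 1 parental and 1 TKO library.

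The related sequence CACGCG, which reads CGCGTG on the other strand, was near a summit of 6 of the 16 members bound in all 4 libraries, against 25.1% of the genes of that pattern, and of 1 of the 20 bound only in TKO, against 12.4%. With both motifs counted, 12 of the 16 had one or the other in at least 1 library, against 52.7% of genes, and 1 of the 20 did, against 19.9%. At the TKO summits alone, CACGCG was at 5 and 4 of the 16 in replicates 1 and 2, against 15.8% and 15.7% of genes, and at 0 and 1 of the 20, against 8.51% and 7.71%. The following stretches show CACGCG or CGCGTG in capitals for 4 of the 6, and for POLR2D, the 1 member bound only in TKO.
POLR1C, chr6:43484872-43484901, plus strand: gaaatgcggagcCGCGTGgttctgggggag
POLR3C, chr1:145610889-145610918, minus strand: ggggtagagtggCACGCGctttttgctttt
POLR3B, chr12:106751889-106751918, plus strand: agagccggcctcCGCGTGcgcgagtgaagg
POLR3E, chr16:22308545-22308644, plus strand: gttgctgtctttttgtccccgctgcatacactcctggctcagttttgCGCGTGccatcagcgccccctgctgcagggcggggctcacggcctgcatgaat
POLR2D, chr2:128615547-128615576, minus strand: cccgcgccacttCGCGTGgtcgccgcaggc
At POLR1C the motif lies in the coding sequence, 43 bp downstream of the TSS, and at POLR3C it lies in the 5′ UTR, 9 bp downstream. At both genes it was within 50 bp of the summit in all 4 libraries. At POLR3B it lies in the 5′ UTR and was near the summit in 1 parental and 1 TKO library. The upstream site of POLR3E was near the summit in 3 libraries, and the intronic site of POLR2D in 1 TKO library.

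The 4 libraries differed in the length of their peak lists far more than in depth. There were 3720 and 5719 peaks in the parental lists and 27213 and 25887 in those of TKO. The number of reads per library, recovered from the deposited statistics, was 26.4 and 22.2 M for the parental line and 19.9 and 13.04 M for TKO, which had fewer reads and more peaks. The length to which reads were extended also differed between the groups, with 140 and 151 bp for the parental line, then 182 and 201 bp for TKO.

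Members were bound more often than other genes in every library, and more of them were bound in TKO. Myc was called at 18 members (40.0%) in parental replicate 1 and at 19 (42.2%) in parental replicate 2, when 12.2% and 12.9% of all protein-coding genes were called. In TKO replicates 1 and 2 it was called at 42 (93.3%) and 41 (91.1%) of the 45, when 49.1% and 49.7% of all genes were called. Exact 95% confidence intervals (Clopper-Pearson, counting error only) were 25.7 to 55.7% and 27.7 to 57.8% for the parental libraries and 81.7 to 98.6% and 78.8 to 97.5% in TKO. The means were 18.5 ± 0.707 and 41.5 ± 0.707 members (SD, n = 2 each), a ratio of 2.24, and the ratio over the other protein-coding genes was 3.95. The member ratio had a low ceiling, since 40.0% and 42.2% were already called in parental cells. The 2 ratios therefore cannot be compared as sizes of gain. Both TKO libraries were above both parental libraries, and p was 0.333 by the exact two-sided permutation test, which cannot go lower with 2 libraries a group. The labels do not say that replicates were separate cultures, though a figure legend of the paper calls them biological replicates. How much of this spread is technical is not known.

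**Figure D1:**
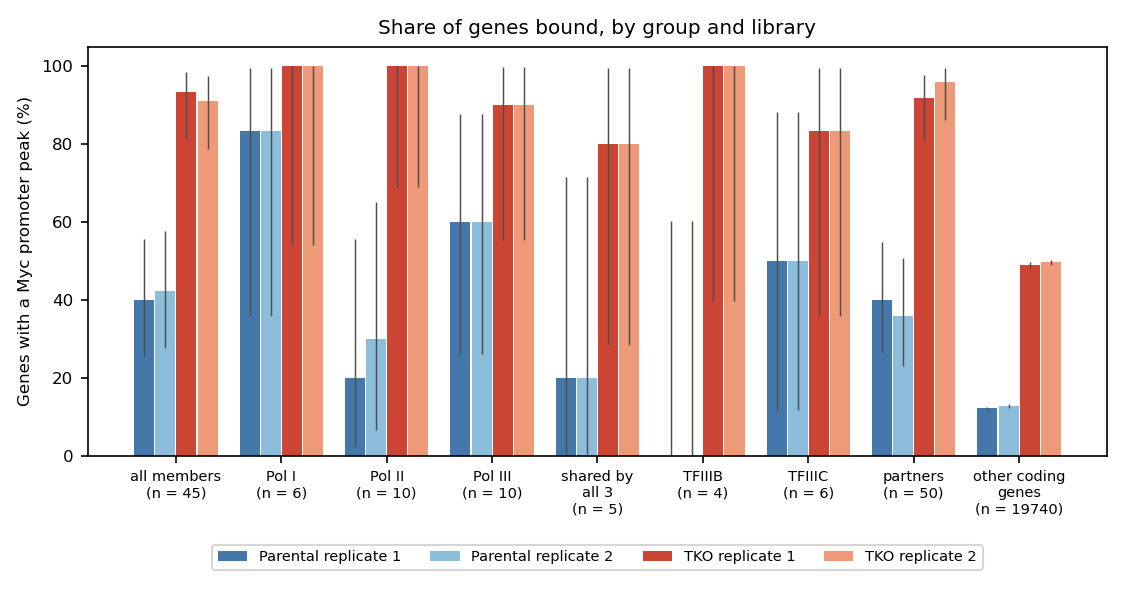
Share of genes with a Myc promoter peak (y axis, percent) for all 45 members, for the larger groups among them, for 50 partner genes of the same pathways and for the other protein-coding genes, with 1 bar per library and exact 95% intervals as lines. The bars of all 45 members stand at 40.0% and 42.2% for the parental libraries and 93.3% and 91.1% for TKO, and the intervals of the smaller groups are wide.

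The size of the gap depended on how many peaks a list held. When each list was cut to its 3720 peaks of highest fold, 18 and 16 members were bound in parental cells and 18 and 17 in TKO, a ratio of 1.03, and the share of all genes bound was 12.2% and 9.01% against 13.9% and 14.3%. Members therefore kept a similar count in the strongest peaks of both cell lines. The members at those strongest TKO peaks still differed in part, since POLR1H and POLR2A were present in both shortened parental lists and in neither shortened TKO list.

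By pattern, 16 members were bound in all 4 libraries (background 9.32% of all genes), 5 in both TKO libraries and 1 parental library (6.16%), and 20 in both TKO libraries and no parental library (29.8%). POLR1D was bound in TKO replicate 1 alone. GTF3C1, POLR2L and POLR3GL had no promoter peak in any library, as did 46.3% of all genes. No member was bound in parental cells and absent from TKO, as was so for all but 13 of the 19740 other genes. The members are described below by polymerase, with levels given as reads at the summit of the strongest promoter peak per 1 M library reads (RPM). The lowest RPM called at any promoter was 0.492 and 0.496 in the parental libraries and 0.501 and 0.614 in the TKO libraries.

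**Figure D2:**
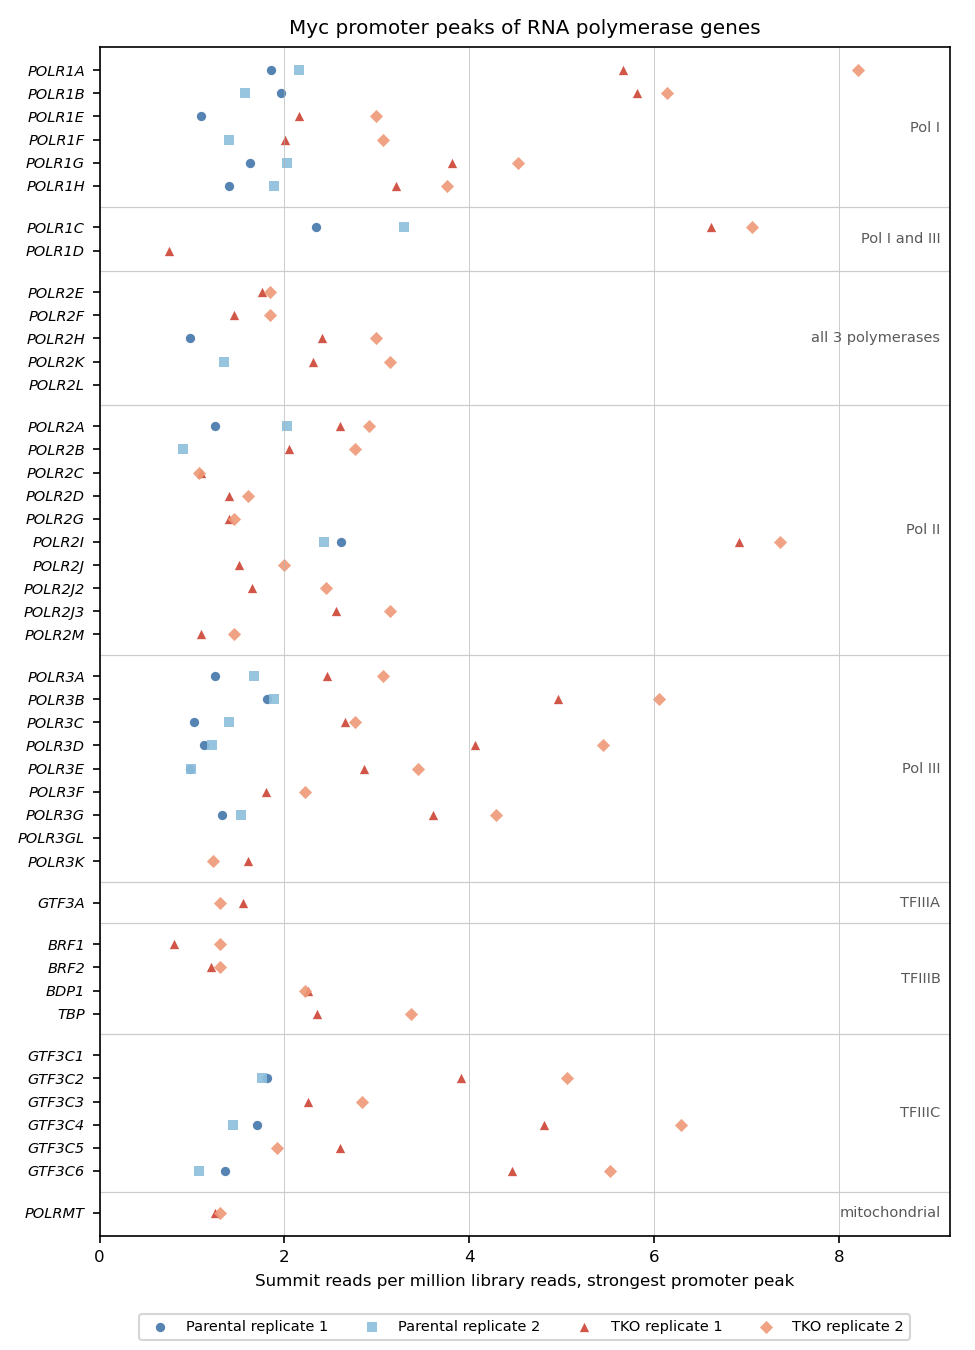
Summit RPM (x axis) of the strongest Myc promoter peak of the members named in the text (y axis), grouped by polymerase or factor, with 1 symbol per library and none where no peak was called. TKO symbols lie to the right of parental symbols at every member shown that has both, and the highest levels are those of POLR1A, POLR2I and POLR1C. Of the 1843 genes bound in all 4 libraries, 99.8% had both TKO levels above both parental ones.

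RNA polymerase I had 5 of its 6 own subunits called in each parental library and 6 of 6 in each TKO library, with shared subunits counted separately. Its parental share of 83.3% was the highest of the groups counted, when 12.2% and 12.9% of all genes were called. In the TKO libraries 49.1% and 49.7% of all genes were called. The exact 95% interval of the parental share, 35.9 to 99.6%, overlapped that of RNA polymerase III subunits (6 of 10, 26.2 to 87.8%). With so few genes the polymerases cannot be ranked. POLR1A, the largest catalytic subunit, had 1.85 and 2.16 RPM in parental cells and 5.67 and 8.21 RPM in TKO. POLR1B, the other large subunit, had 1.97 and 1.58 RPM in parental cells and 5.82 and 6.14 RPM in TKO. Both TKO values of each gene were more than double its parental ones, and the POLR1A value in TKO replicate 2 was the highest of any member. POLR1A shares its promoter with the divergent gene PTCD3, and the summit moved by up to 486 bp between libraries, into the PTCD3 coding sequence in TKO, so its peak cannot be assigned to 1 gene.

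POLR1G and POLR1E form the heterodimer that helps the enzyme start transcription, and POLR1H is a zinc-ribbon subunit needed for RNA cleavage. POLR1G had 1.63 and 2.03 RPM in parental cells and 3.81 and 4.53 RPM in TKO. POLR1H had 1.40 and 1.89 RPM in parental cells and 3.21 and 3.76 RPM in TKO. Neither gene's groups overlapped, as was so at 99.8% of the 1843 genes bound in all 4 libraries. The strongest peak of POLR1G lay at a different place in TKO replicate 1, 771 bp from that of TKO replicate 2 and within an intron of PPP1R13L. POLR1E was bound in parental replicate 1 (1.10 RPM) and in TKO (2.16 and 2.99 RPM). POLR1F, a stalk subunit, was bound in parental replicate 2 (1.40 RPM) and in TKO (2.01 and 3.07 RPM).

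POLR1C and POLR1D form the assembly platform that RNA polymerases I and III have in common, and they lay at opposite ends of the range. POLR1C had 2.35 and 3.29 RPM in parental cells and 6.62 and 7.06 RPM in TKO. POLR1D had a single peak, of 15 reads (0.752 RPM), in TKO replicate 1, and its nearest summit in TKO replicate 2 was 161156 bp away. The small subunits common to all 3 polymerases, POLR2E, POLR2F, POLR2H, POLR2K and POLR2L, were bound at 1 of 5 in each parental library and at 4 of 5 in each TKO library. Of all genes, 12.2% and 12.9% were bound in the parental libraries and 49.1% and 49.7% in those of TKO. POLR2H was bound in parental replicate 1 (0.984 RPM) and POLR2K in parental replicate 2 (1.35 RPM), and in TKO both had between 2.31 and 3.14 RPM. POLR2E and POLR2F were bound in TKO alone, at 1.45 to 1.84 RPM. POLR2L had a peak just outside the window in every library, with the nearest summit 1480 to 1548 bp from its TSS.

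RNA polymerase II subunits went from few bound to all bound in the full lists, with 2 and 3 of 10 called in the parental libraries and 10 of 10 in each TKO library. Over all genes the shares called were 12.2% and 12.9% in the parental libraries and 49.1% and 49.7% in TKO. Exact 95% intervals of the subunit shares were 2.5 to 55.6% and 6.7 to 65.2% in parental cells and 69.2 to 100% in TKO. The parental intervals include the shares of all genes, so the parental counts cannot be told from those shares. All intervals count POLR2J, POLR2J2 and POLR2J3, which are near-identical copies, as separate genes, so they may be too narrow. With each list cut to its 3720 peaks of highest fold, POLR2A and POLR2I were called in both parental libraries, and POLR2B in parental replicate 2. POLR2I was then called in both TKO libraries and POLR2B in TKO replicate 2, so the gain was not seen at equal list lengths. POLR2I, a zinc-ribbon subunit with a role in fidelity, had 2.61 and 2.43 RPM in parental cells and 6.92 and 7.36 RPM in TKO. POLR2A, the largest subunit, whose tail is phosphorylated during transcription, had 1.25 and 2.03 RPM in parental cells and 2.61 and 2.91 RPM in TKO. POLR2B, the other large subunit, was not called in parental replicate 1 and had 0.901 RPM in parental replicate 2, 2.06 RPM in TKO replicate 1 and 2.76 RPM in TKO replicate 2. POLR2I stood above the other members of this group in all 4 libraries. POLR2A and POLR2B are less certain, since their strongest summits were up to 1539 and 1518 bp apart between libraries, across ground shared with neighbouring genes.

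The other 7 RNA polymerase II members were called in both TKO libraries and in no parental library. These were the assembly subunit POLR2C, the stalk subunits POLR2D and POLR2G, the associated protein POLR2M, and POLR2J, POLR2J2 and POLR2J3. Their TKO levels ran from 1.07 RPM at POLR2C to 3.14 RPM at POLR2J3, both in TKO replicate 2. POLR2J, POLR2J2 and POLR2J3 are near-identical copies, so the reads of 1 copy could have been placed at another.

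RNA polymerase III subunits were bound at 6 of 10 in each parental library and at 9 of 10 in each TKO library. Of all genes, 12.2% and 12.9% were bound in the parental libraries and 49.1% and 49.7% in those of TKO. POLR3A, the largest subunit, had 1.25 and 1.67 RPM in parental cells and 2.46 and 3.07 RPM in TKO. POLR3B, the other large subunit, had 1.82 and 1.89 RPM in parental cells and 4.96 and 6.06 RPM in TKO. Neither gene's groups overlapped, as was so at 99.8% of the 1843 genes bound in all 4 libraries. The gap was wider at POLR3B, although the difference between the genes was not tested. The strongest POLR3A summits were up to 409 bp apart between libraries, and that of parental replicate 2 lay 408 bp upstream of the TSS. The POLR3A levels thus compare different positions.

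POLR3D and POLR3E form a dimer with roles in initiation and termination. POLR3D had 1.14 and 1.22 RPM in parental cells and 4.06 and 5.45 RPM in TKO. POLR3E had 0.984 and 0.992 RPM in parental cells and 2.86 and 3.45 RPM in TKO. Both were among the lowest of the 16 members in parental cells. POLR3C and POLR3G belong to the initiation subcomplex that is particular to RNA polymerase III. POLR3C had 1.02 and 1.40 RPM in parental cells and 2.66 and 2.76 RPM in TKO, and POLR3G had 1.32 and 1.53 RPM in parental cells and 3.61 and 4.30 RPM in TKO. The POLR3G summits were up to 910 bp apart between libraries, and in TKO replicate 1 the strongest summit lay 882 bp from the nearest TSS, towards MBLAC2.

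POLR3F, also of that subcomplex, and POLR3K, a termination subunit, were bound in TKO alone, at 1.23 to 2.22 RPM. POLR3GL, the paralogue of POLR3G, was not bound at its promoter in any library, and its nearest summits in TKO were 2519 and 7104 bp away. The 2 paralogues thus differed in every library.

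The factors that bring RNA polymerase III to its genes were counted by complex. TFIIIC, which binds the internal promoters of transfer RNA genes, was bound at 3 of 6 genes in each parental library (exact 95% interval 11.8 to 88.2%) and 5 of 6 in each TKO library. The shares of all genes bound were 12.2% and 12.9% in the parental libraries and 49.1% and 49.7% in those of TKO. GTF3C2 had 1.82 and 1.76 RPM in parental cells and 3.91 and 5.06 RPM in TKO, and GTF3C4 had 1.70 and 1.44 RPM in parental cells and 4.81 and 6.29 RPM in TKO. GTF3C6 had 1.36 and 1.08 RPM in parental cells and 4.46 and 5.52 RPM in TKO. All 3 had TKO levels above both parental ones, as did 99.8% of the 1843 genes bound in all 4 libraries. GTF3C6 had the lowest parental values of the 3. GTF3C3 (2.26 and 2.84 RPM) and GTF3C5 (2.61 and 1.92 RPM) were bound in TKO alone. GTF3C1, the largest TFIIIC subunit, had no promoter peak, and its nearest summit in TKO was 78992 and 79050 bp away, within the gene body.

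TFIIIB places the polymerase at the start site and is built from TBP, BDP1 and either BRF1 or BRF2. Its 4 genes were bound in no parental library (0 of 4, exact 95% interval to 60.2%) and in both TKO libraries. With so few genes the parental count cannot be told from the 12.2% and 12.9% of all genes, or from the share of TFIIIC. In the TKO libraries 49.1% and 49.7% of all genes were bound. TBP, which serves all 3 polymerases, had 2.36 and 3.37 RPM in TKO. BDP1 had 2.26 and 2.22 RPM, BRF1 had 0.802 and 1.30 RPM, and BRF2 had 1.203 and 1.30 RPM. Both TBP and BDP1 were above both BRF genes in each TKO library. GTF3A, which encodes the 5S-specific factor TFIIIA, was likewise bound in TKO alone (1.55 and 1.30 RPM). So was POLRMT, the mitochondrial polymerase, at 1.25 and 1.30 RPM, although its 2 TKO summits lay 960 bp apart.

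Levels at the 16 members bound in all 4 libraries were higher in TKO. In a limma fit over the 1843 genes with a promoter peak in all 4 libraries, 16 of 16 members passed an adjusted p of 0.05 upwards, as did 99.8% of the genes tested. The groups did not overlap at any of the 16, as was so at 99.8% of the genes. The median fold was 2.80 over the members and 2.54 over all genes tested. Member differences ran from 0.79 ± 0.22 (log2, SE) at POLR2A, where adjusted p was 0.000245 by limma, to 2.03 ± 0.22 at GTF3C6, where it was 7.68e-19. The fit gave every gene the same pooled spread, so these p-values treat a factor that moves a whole library as if it were gene-level signal, and such a factor and the genotype cannot be told apart. When RPM was divided by the extension length, 15 of 16 members passed and POLR2A fell short, at 0.40 with adjusted p = 0.0618 by limma. Without parental replicate 1, POLR2A also fell short, at 0.44 with adjusted p = 0.142 by limma.

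The median gene was 1.35 higher in TKO on the log2 scale, and the members were next compared relative to that shift. After centring each library on its median over the 1843 genes, 0 of 16 members passed an adjusted p of 0.05 by limma, when 0.326% of genes passed upwards and 0.326% downwards. At an unadjusted p of 0.05, 7 of the 16 passed, 5 upwards and 2 downwards, against 7.6% and 6.84% of genes. The member median was 0.14 above the median gene, with 9 members above 0 and 7 below. GTF3C6 (0.68 ± 0.19, SE) and POLR3D (0.65 ± 0.18) stood highest, with limma adjusted p of 0.0717 and 0.0720. GTF3C4 (0.46), POLR1A (0.42) and POLR1B (0.41) were the other upward ones. POLR2A (-0.55 ± 0.20, adjusted p = 0.196 by limma) and POLR3A (-0.42 ± 0.19) were the downward ones. On the authors' fold in place of reads, several of these directions turned, with POLR1A at -0.17, POLR1B at -0.24 and POLR3A at 0.27, and GTF3C6 was at 0.19 (limma adjusted p = 0.555). GTF3C6 and POLR3D did pass in limma fits with a TSS window of 0.5 kb, at adjusted p of 0.0230 and 0.0295, and with peaks of a −log10 q of at least 5. The share of all genes that passed in these alternative fits is not given here, so the passing members cannot be set against it.

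**Figure D3:**
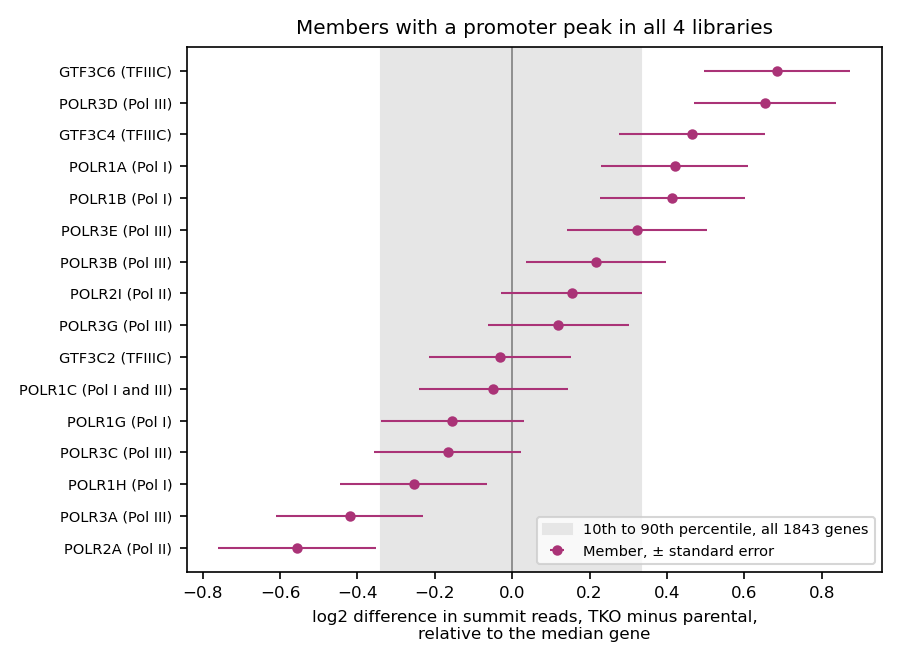
Log2 difference in summit reads between TKO and parental cells relative to the median gene (x axis) for the 16 members bound in all 4 libraries, with standard errors from limma. The grey band spans the 10th to 90th percentile of the 1843 genes, from -0.34 to 0.33, and GTF3C6, POLR3D, GTF3C4, POLR1A and POLR1B lie above it while POLR2A and POLR3A lie below it.

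Within each list, member peaks ranked above the typical promoter peak. The percentile of a peak is the share of all peaks in its list with a fold at or below its own. The median over bound members was 65.7 and 61.7 in the parental lists and 82.7 and 75.3 in the TKO lists, against 55.8 and 55.8, and 69.7 and 69.2, over all bound genes. Their peaks were also wider than those of all bound genes, at a median of 340 and 313 bp against 245 and 244 bp in parental cells and of 576 and 613 bp against 478 and 480 bp in TKO. The median summit lay 61 and 85 bp from the TSS in the parental lists, and 71 and 58 bp from it in those of TKO, against 107 bp in both parental libraries and 148 and 146 bp in TKO over all genes.

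The 16 members bound in all 4 libraries mostly ranked high in TKO. Their median percentile was 98.2 and 97.7 in TKO replicates 1 and 2, against 95.1 and 94.7 over all 1843 genes of that pattern. POLR2A was lowest, at 18.6 and 50.8, followed by POLR1H at 83.4 and 81.0. The ranks overlapped those of other members, such as POLR1E, bound in parental replicate 1 alone of the parental libraries, at 94.8 and 96.9. The 20 members bound only in TKO had a median of 66.3 and 62.7, against 60.4 and 61.4 over the 5887 genes of that pattern. They ranged from 24.4 (BRF2) to 94.1 (GTF3C5) in TKO replicate 1, and the lowest in TKO replicate 2 was 1.82 (POLR2E).

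**Figure D4:**
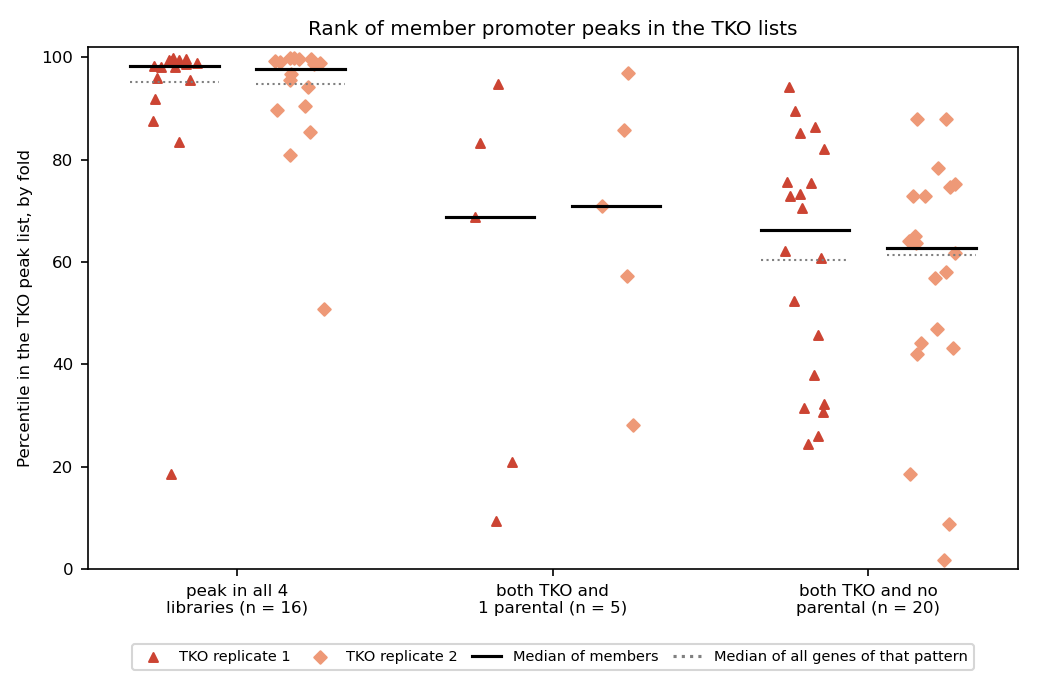
Percentile of each member's strongest promoter peak in the TKO peak lists by fold (y axis), for members bound in all 4 libraries, in both TKO and 1 parental library, and in both TKO and no parental library. Black lines are member medians and dotted lines the medians of all genes of the same pattern (not drawn for the middle group), and the medians of the first group are 98.2 and 97.7 against 66.3 and 62.7 in the last.

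The canonical E-box was less frequent at member summits in TKO, as it was over all bound genes. CACGTG lay within 50 bp of the strongest summit at 27.8% and 31.6% of bound members in the parental libraries and at 9.52% and 9.76% in the TKO ones. Over all bound genes the shares were 22.0% and 18.6% against 9.35% and 8.24%, and in equally long windows placed 1 kb away on both sides they were 1.31 to 1.47%. The member means were 29.7 ± 2.69% and 9.64 ± 0.164% (SD, n = 2 each), a difference of -20.04 percentage points, with p = 0.333 by the exact two-sided permutation test. With 3720 peaks in each list the difference was -6.64 percentage points. CACGCG lay at 27.8% and 21.1% of bound parental members, and at 11.9% and 12.2% of those bound in TKO, against 15.3% and 13.6%, and 10.1% and 9.52%, over all bound genes.

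The difference between cell lines was smaller within the members bound in both. Of the 16 bound in all 4 libraries, 31.2% and 37.5% had the E-box at the parental summits and 25.0% in each TKO library. Over the 1843 genes of that pattern the shares were 24.6% and 22.1% at the parental summits and 21.2% and 20.8% at those of TKO. Of the 20 bound only in TKO, 0 had it in either TKO library (exact 95% interval to 16.8%), when 6.15% and 4.86% of the 5887 genes did. Within 250 bp of the TKO summit, 11 and 10 of the 16 had CACGTG (68.8% and 62.5%, against 40.0% and 39.3% of genes), and 3 and 4 of the 20 did (against 15.8% and 15.5% of genes). Median GC content within 100 bp of the TKO summit was 63.2% and 65.7% at the 16 and 65.2% and 66.2% at the 20.

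**Figure D5:**
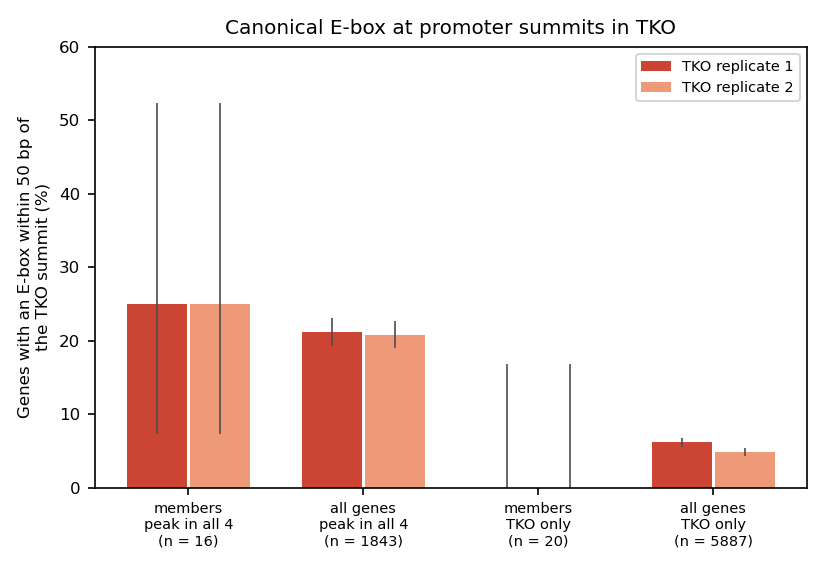
Share of genes with CACGTG within 50 bp of the TKO summit (y axis, percent) for members and for all genes bound in all 4 libraries or only in TKO, with exact 95% intervals as lines. It was 25.0% at the 16 members bound in all 4 libraries and 0 at the 20 bound only in TKO.

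A promoter shared with a neighbour was frequent among members. The strongest peak also lay within 1 kb of a TSS of another gene at 44.4% and 47.4% of members bound in the parental libraries, and at 31.0% and 34.1% of those bound in TKO, against 31.5% and 31.7%, and 24.5% and 24.7%, of all bound genes. Among the 16 bound in all 4 libraries this held at 8 in each library (50.0%), against 33.7 to 34.1% of the 1843 genes of that pattern. They were POLR1A with PTCD3, POLR1C with YIPF3, POLR1G with PPP1R13L, POLR2A with ZBTB4, POLR2I with TBCB, POLR3C with RNF115, POLR3G with MBLAC2 and GTF3C4 with DDX31. Occupancy at these promoters cannot be assigned to either gene of the pair. Between the TKO replicates, the strongest summits of 27 of 41 members (65.9%) fell within 50 bp of each other, against 46.6% of 8949 genes.

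The partner genes of the same polymerases were also bound more often in TKO, in the full lists at shares similar to those of the members. The 50 partners are the initiation factors of RNA polymerases I and II, further RNA polymerase III factors and mitochondrial factors. Of these, 20 and 18 were bound in the parental line and 46 and 48 in TKO. Of all genes, 12.2% and 12.9% were bound in the parental libraries and 49.1% and 49.7% in those of TKO. The partner means were 19 ± 1.41 and 47 ± 1.41 (SD, n = 2 each), a ratio of 2.47, with p = 0.333 by the exact permutation test. This ratio also had a low ceiling, since 20 and 18 of the 50 were already called in parental cells. With peaks of a fold of at least 5 the partner ratio was 5.00, and that of the members 2.48, so the similarity holds for the full lists only. At that fold 15 and 14 members were bound in the parental libraries and 35 and 37 in TKO. The shares of all genes were then 8.18% and 7.74% in the parental libraries and 37.9% and 41.1% in TKO. RNA polymerase I partners were bound at 3 and 2 of 7 in parental cells and 7 of 7 in TKO, and RNA polymerase II partners at 12 and 13 of 30 and then 26 and 28 of 30. RNA polymerase III partners were bound at 3 and 1 of 9 in parental cells and 9 of 9 in TKO, and the mitochondrial ones at 2 of 4 and then 4 of 4.

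Of the partners, 16 were bound in all 4 libraries. They were TAF1A and TAF1D of the RNA polymerase I selectivity factor SL1, and GTF2A1 of TFIIA. For TFIIH they were GTF2H1, GTF2H2, GTF2H3, GTF2H4 and ERCC3, of which GTF2H2 has near-identical copies in the genome. TAF2, TAF8, TAF9, TAF12 and TAF13 of TFIID, the octamer factor POU2F1, and TFAM and TFB2M of the mitochondrial initiation complex made up the rest.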

How the data were processed

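Myc ChIP-seq was deposited as 1 peak list per library, for 2 parental and 2 TKO libraries. The 2 input samples were not analysed here. Per the study's methods and processing notes, the authors aligned single-end reads to hg19 with Novoalign 3.08.02 and called peaks in each library with MACS2 2.1.1.20160309 at a p cutoff of 0.01, with input as control. The deposited values of a peak are a score, the fold, or ratio of reads at the summit to the local background, its −log10 p-value and −log10 q-value, and the position of the summit. The lowest deposited −log10 q-value was 2.03 to 2.07, so the lists end at a threshold on q near 0.01 and weaker peaks are not listed. The paper's results likewise give a q cutoff of 0.01, although its methods name a cutoff on p.

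Summit reads were recovered by solving the MACS2 formulas for fold and p, and a whole number matched the −log10 p-value within 0.002 for 100% of peaks. Depth was then derived with an assumed genome of 2700000000 bases and an extension equal to the narrowest peak of a list. TSS were those of basic protein-coding transcripts of GENCODE release 44 lifted to GRCh37 (55751 TSS). Each gene was represented by its promoter peak of most summit reads. Of the members, 1 was counted but is not reported by name here. How duplicate reads were treated is not given in the sources used here.

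Counts and shares per library were tested by exact two-sided permutation, and log2 summit RPM by limma with Benjamini-Hochberg adjustment over 1843 genes. No pseudocount was needed. The steps were tested on simulated data. Motifs were searched on both strands within 50 bp of summits. The members, the partner list and the rule for named genes (all other members, with values for the largest subunits and those bound in both parental libraries) were chosen with earlier results of these data known. Same-numbered replicates did not deviate together, with a correlation of 0.0709 over 1843 genes. Alternatives were stricter q or fold, equal list lengths, other TSS windows or transcripts, fold in place of reads, reads per extension length, rank by p, a motif window of 100 bp, a replicate block and each library left out. Python 3.11.15, numpy 2.4.6, pandas 2.3.3, scipy 1.17.1, pysam 0.24.0, matplotlib 3.10.9, samtools 1.23.1, R 4.3.3 and limma 3.58.1 were used.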

Additional observations from a re-analysis of the deposited data

How the results depend on the processing

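Most values moved little under the alternatives. Cutting every list to 3720 peaks changed most, to a ratio of TKO to parental members bound of 1.03, a ratio for partners of 1.18, 1 member bound in both TKO libraries and no parental one, and a difference in E-box share of -6.64 percentage points. The number of peaks called and the genotype cannot be told apart. A fold of at least 5 gave a partner ratio of 5.00 and left 10 members in the uncentred limma fit, of which 10 passed. The median parental percentile was 68.4 when ranked by p and 63.7 by fold. On the authors' fold in place of reads, the POLR2A difference turned to -0.10 (limma adjusted p = 0.71), that of POLR1H fell to 0.50 (limma adjusted p = 0.0542), and 3 members passed the centred limma fit. These were GTF3C4 (1.38) and POLR3D (0.79) upwards and POLR2A (-1.19) downwards. The centred differences of POLR1A (-0.17), POLR1B (-0.24), POLR1C (0.08), POLR1G (0.13), POLR3A (0.27) and GTF3C2 (0.20) changed sign there, and that of GTF3C6 was 0.19. The cause was not tested. The centred limma fit gave 2 members, GTF3C6 and POLR3D, at a −log10 q of at least 5, in a TSS window of 0.5 kb, and when only genes with summits within 0.3 kb were fitted, an alternative chosen after seeing the data. For none of these alternative centred fits is the share of all genes that passed given here, so the member counts cannot be set against it.

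Leaving out each library in turn gave 2.18 to 2.31 for the member ratio, 2.35 to 2.61 for the partner ratio, 20 to 23 members bound only in TKO, a difference in E-box share of -21.9 to -18.1 percentage points, 16 to 18 members passing the uncentred fit and 0 to 0 passing the centred fit. In these limma fits a lone library was assumed to vary like the other group. Same-numbered replicates shared only a number. Under a replicate block, the ratios were 2.24 and 2.48, and 2 members passed the centred limma fit, GTF3C6 and POLR3D, against 0 without the block. The share of all genes that passed under the block is likewise not given here.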
